A study of Mus musculus with 34 samples.

Results

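Primary mouse neural stem cells (NSC) carrying retroviral STAT3C and CEBPB together were compared with the same kind of cells carrying the empty pBabe retroviral vector, across 10857 genes. The comparison holds 10 of the 34 arrays of the series: 5 with both factors and 5 controls, chosen by their transduction label. All were NSC isolated from mouse telencephalon at E13.5, and the mouse strain is not given in the sources used here. STAT3C is a constitutively active form of STAT3. The description and the transduction label of the 5 arrays with both factors name STAT3C, while their source label names STAT3, and they were taken as STAT3C. A further 4 NSC arrays with STAT3C alone and 4 with CEBPB alone entered the fit, and 16 arrays of the cell line C17.2 served for contrast. A gene was tested where its probe was detected (detection p below 0.05) on at least 4 of the 18 NSC arrays. No label says that arrays came from separate cultures or embryos, so the p-values measure only how far these arrays spread, which may be technical.

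STAT3 is activated by cytokines of the interleukin-6 family and moves to the nucleus, where it binds DNA as a dimer. In the developing telencephalon this pathway is known for driving neural stem cells toward the astrocyte fate, with Gfap as its classic target. CEBPB is a leucine zipper factor of the acute phase and inflammatory response, and in the liver both factors act on the same acute phase genes. The series addresses whether a module of such factors sets off the mesenchymal gene programme of malignant glioma, so the comparison asks which transcripts differ when both are added to normal neural stem cells.

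The arrays of the comparison lay on 3 slides, and slide and group overlap only in part. Slide 4 held 3 controls, slide 5 held 3 arrays with both factors, and slide 6 held 2 of each. The single-vector arrays tied the slides together: slide 4 also held 3 STAT3C arrays, slide 5 held 3 CEBPB arrays, and slide 6 held 1 of each. Slide was therefore a term of the fit, and differences within slide 6 are given beside it. The first principal component, 46.8% of the variance, set the 6 arrays of slide 6 apart from the rest. Replicate 4 of each of the 4 groups, all on slide 6, did not detect Xist, the noncoding RNA of X inactivation, and had signals of 382.9 to 437.3 for Eif2s3y, a Y-linked gene. The other 14 detected Xist. Control replicate 3 stood apart from the other 17 arrays on the fourth component. The arrays detected 36.3% to 41.7% of 45281 probes with a median of 43 to 45 beads a probe. Correlation across genes ran from 0.9396 to 0.9963 among the 5 controls and from 0.944 to 0.9977 among the 5 arrays with both factors. On slide 6 it was 0.9842 between the control and the array with both factors lacking Xist, and 0.9778 between those with Xist. It was lower between the controls of that slide (0.9575) and between its arrays with both factors (0.9558). Of 9 neural stem and radial glia markers, 6 (Sox2, Nes, Fabp7, Hes1, Vim and Slc1a3) were detected on all 10 arrays, and Pax6, Hes5 and Prom1 on none.

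The CEBPB array of slide 6, CEBPB replicate 4, lay nearer the arrays with both factors than the controls in the median called gene. Over the 308 genes called below, its level lay a median of 0.65 of the way from the slide 6 controls to the slide 6 arrays with both factors, against 0.22 for the STAT3C array of that slide. In 191 of the 308 it lay beyond the 3 other CEBPB arrays in the direction of the call. Those 3 all lay on slide 5 and detected Xist, so slide and Xist differ there as well. The share over all genes tested was not counted. This array also helped to make the 308 calls, so both figures are a description. Since it helps to set the slide term, the counts are given with and without it. Whether its label is right was not tested, and every value for CEBPB alone rests in part on it.

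Both factors together changed 308 of 10857 genes (2.84%) at an adjusted p below 0.05 by limma with Benjamini-Hochberg adjustment: 164 rose (1.51%) and 144 fell (1.33%). The median change was 0.90 on the log2 scale among the rises and -0.94 among the falls, against 0.007 over all genes tested, and 63 rises and 60 falls were at least 2-fold. With STAT3C alone 0 genes passed in the same fit, and with CEBPB alone 3 did (0.0276%). All 3 comparisons share the 5 controls. The count depended on the model: the 10 compared arrays alone gave 11 calls, no slide term gave 199 (68.3% up), and the absence of Xist as a further term gave 898. The fit of the 10 arrays kept the slide term, so its changes are those within slide 6. There the arrays of slides 4 and 5 added only to the estimate of the spread. Without CEBPB replicate 4 the count was 170 (97 up, 73 down), and without the 4 arrays lacking Xist it was 420. Leaving out 1 other array moved it by over 1.5 times in 8 cases. It was 501 without control replicate 3 and 202 without control replicate 4. It was 205, 567 and 503 without replicates 2, 4 and 5 of both factors, and 202, 196 and 201 without STAT3C replicates 1, 3 and 4. Of the 308 genes, 145 were among those 420 and 154 among the 170.

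The direction of the called genes was read within slide 6, in the plain group means and between slides 5 and 4. The plain means and the difference between slides 5 and 4 also carry differences between slides. All 308 had the same sign in the plain group means and in slide 6. In 292 of 308 the sign was shared by both slide 6 pairs (the pair lacking Xist and the pair with it) and by the difference between slides 5 and 4, against 38.9% of all genes tested. These arrays also made the calls, so the agreement is a description. The 5 arrays of one group lay wholly outside those of the other in 121 of the 308, against 2.78% of all genes tested. Fitted changes were larger than the plain differences in 281 of 308: the plain difference was a median of 0.727 of the fitted change, and the slide 6 difference 0.906 of it.

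**Figure D1:**
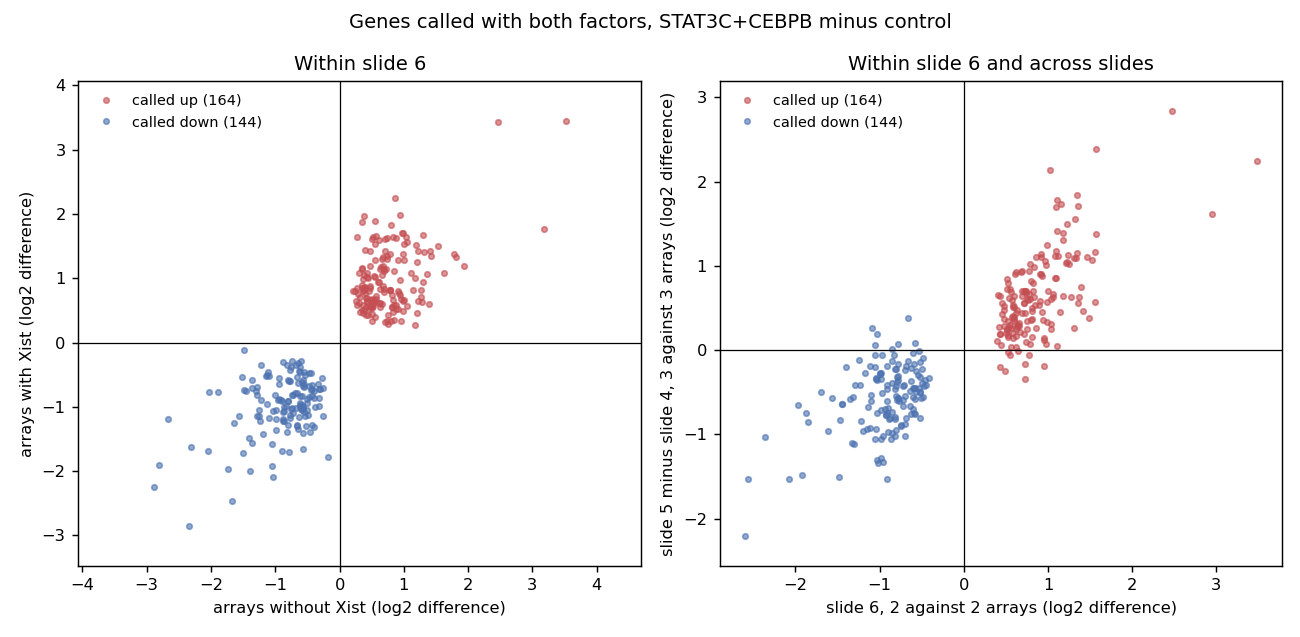
Each point is 1 of the 308 genes called with both factors, 164 up (red) and 144 down (blue). The left panel plots the log2 difference between the array with both factors and the control in the slide 6 pair lacking Xist against that in the pair with Xist, and the right panel plots the mean slide 6 difference against the difference between 3 arrays of slide 5 and 3 controls of slide 4. In 292 genes the sign is shared by all 3 differences, and the 16 others run from -0.34 (Tfrc) to 0.38 (Cytip) on the slide 5 minus slide 4 axis.

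The transduced genes were read first. Stat3, on chromosome 11 from 100886806 to 100939594 of GRCm38.p6, stood at 11.06, 10.97, 10.05, 10.78 and 10.17 in the controls and at 10.55, 10.76, 10.88, 10.47 and 10.88 with both factors (log2 difference 0.10, SE 0.24, adjusted p = 0.885 by limma). Cebpb, on chromosome 2 from 167688915 to 167690432, stood at 8.12, 8.28, 8.91, 8.56 and 9.0 in the controls and at 8.16, 8.22, 8.09, 8.18 and 8.45 with both (difference -0.44, SE 0.19, adjusted p = 0.252 by limma). Both groups overlapped for both genes, so neither probe showed the transduction. Of the 3 Stat3 probes 2 had the opposite sign. The probe sequences were not set against the vectors, and a probe outside the transduced sequence would not measure it. The other factors of the glioma module did not pass either: Runx1 (0.17), Fosl2 (-0.21), Zbtb18 (-0.24), Cebpd (-0.30) and Bhlhe40 (-0.97, SE 0.26, adjusted p = 0.0616).

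Lcn2 and S100a8 rose from below detection, so their folds are lower bounds and have no rank among the other rises. Lcn2, which encodes lipocalin 2, a secreted acute phase protein that binds bacterial siderophores, was detected on 0 of 5 control arrays and on all 5 arrays with both factors. Its level was 4.40, 4.40, 4.41, 4.45 and 4.50 in the controls and 7.02, 7.27, 5.64, 7.96 and 7.95 with both (fitted log2 difference 3.74, SE 0.34, adjusted p = 2.8e-05 by limma). The groups were separated by 1.14, and replicate 3 of the both-factor arrays was the lowest. Measured against the lowest detected level of each control array, Lcn2 was at least 4.60-fold higher. S100a8, a calcium-binding protein of neutrophils and inflamed tissue, was likewise detected on 0 of 5 controls and on all 5 arrays with both factors. It stood at 4.46, 4.54, 4.41, 4.42 and 4.40 in the controls and at 6.59, 6.46, 5.21, 6.88 and 7.83 with both (difference 3.16, SE 0.32, adjusted p = 6.16e-05 by limma, at least 3.09-fold higher). Again no control reached any array with both factors.

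The single-vector arrays placed these genes differently on different slides. With STAT3C alone the fitted changes were -0.01 for Lcn2 and -0.08 for S100a8. With CEBPB alone they were 2.02 (SE 0.37, adjusted p = 0.0697 by limma) and 1.76 (SE 0.35, adjusted p = 0.136). Those values rest on 1 array: Lcn2 stood at 7.02 on CEBPB replicate 4 and at 4.39, 4.71 and 4.67 on the 3 CEBPB arrays of slide 5, and S100a8 at 6.60 against 4.37, 4.36 and 4.44. Without CEBPB replicate 4 the change with both factors was 3.48 for Lcn2 and 2.95 for S100a8, and both calls held.

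The promoters of both genes are shown because both genes rose and stand on the list of C/EBP target genes. The 250 bases before each start site are given 5′ to 3′ from RefSeq on GRCm38.p6, at chr2:32387740-32387989 on the minus strand for Lcn2 and chr3:90668821-90669070 on the plus strand for S100a8. Capitals mark the C/EBP motif TTGCNNAA or its reverse TTNNGCAA and the STAT motif TTCNNNGAA, which reads the same on both strands.
Lcn2: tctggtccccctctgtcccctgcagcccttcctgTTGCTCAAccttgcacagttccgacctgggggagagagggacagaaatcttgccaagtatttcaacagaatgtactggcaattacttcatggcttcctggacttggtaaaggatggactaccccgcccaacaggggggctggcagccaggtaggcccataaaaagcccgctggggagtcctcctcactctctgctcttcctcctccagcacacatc
S100a8: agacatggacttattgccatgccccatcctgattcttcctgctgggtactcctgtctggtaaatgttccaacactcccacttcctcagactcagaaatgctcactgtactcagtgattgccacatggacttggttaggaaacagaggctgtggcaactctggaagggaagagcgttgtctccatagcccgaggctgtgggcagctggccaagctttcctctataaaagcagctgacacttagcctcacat
Lcn2 holds 1 C/EBP match and no STAT match, and S100a8 holds neither set of letters in this window. Over windows from 250 bases before to 50 after the start site, the C/EBP motif stood in 11 of 127 genes called up with a promoter in the table (8.66%) and in 7.82% of 8823 tested genes. The STAT motif stood in 2 of the 127 (1.57%) and in 6.72% of tested genes. A match is a description of letters and says nothing of binding.

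Of the wider C/EBP target list 13 of 23 genes on the array passed the detection filter, 2 rose (Lcn2 and S100a8), none fell, and the list's median change was -0.04. Over all genes 1.51% rose and 1.33% fell, and every list below is read against these shares. Lcn2 and S100a8 passed the filter only through the arrays with both factors and CEBPB replicate 4, where they are high. Their calls among the C/EBP and STAT3 targets therefore follow in part from the filter. The other acute phase and inflammatory members did not pass, among them Ptgs2 (-0.10), Cd14 (-0.03) and Cebpd (-0.30). Of 29 tested STAT3 targets 1 rose (Lcn2) and 1 fell (Vegfa), with a median of -0.07. Socs3, the feedback inhibitor of the pathway, changed by -0.47 (adjusted p = 0.61 by limma) and Gfap, the intermediate filament of astrocytes, by 0.43 (adjusted p = 0.827). Neither passed. Serpina3n, an acute phase protease inhibitor, stood at 6.41, 6.31, 5.12, 7.45 and 6.89 in the controls and at 9.41, 9.33, 7.80, 7.31 and 9.41 with both factors. On 4 of the 5 it lay above every control, and the fitted difference of 1.61 (SE 0.55, adjusted p = 0.128 by limma) did not pass.

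Among genes detected in every control, Ccn2 had the largest rise. It encodes connective tissue growth factor, a matricellular protein induced by TGF-beta and YAP signalling, and lies on chromosome 10 from 24595442 to 24598683. Ccn2 stood at 6.5, 6.8, 6.77, 5.76 and 5.78 in the controls and at 8.91, 8.89, 10.79, 8.94 and 7.55 with both factors (difference 2.72, SE 0.46, adjusted p = 0.00426 by limma). Every array with both factors lay above every control. The highest, replicate 3, was the array on which Lcn2 and S100a8 were lowest. Ccn2 did not pass with STAT3C (0.42) or CEBPB (-0.17) alone. With both factors it lost its call without the 4 arrays lacking Xist (1.76, adjusted p = 0.15 by limma), in the authors' deposited values (adjusted p = 0.0828) and in the 10 arrays alone (adjusted p = 0.298). Actn1, which encodes alpha-actinin, an actin crosslinker, rose by 1.51 (SE 0.29, adjusted p = 0.00917 by limma). Its levels of 8.38, 8.46, 8.30, 7.07 and 7.18 in the controls overlapped those of 9.48, 9.54, 9.17, 8.21 and 8.0 with both. On slide 6 both arrays with the factors lay above both controls, and slide 5 lay above slide 4. Actn1 lost its call with no slide term (adjusted p = 0.264 by limma), without the arrays lacking Xist (adjusted p = 0.0518) and in the 10 arrays alone (adjusted p = 0.149).

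Ccn2 and Actn1 were the 2 risers among 42 tested mesenchymal glioma genes, none of which fell, so 4.76% of the list was called against 2.84% of all genes. The median change of that list was 0.19 with 27 of 42 members positive, and 0.06 without CEBPB replicate 4. Other matrix and cytoskeletal members that define the mesenchymal class did not pass: Col5a1 changed by 0.89 (adjusted p = 0.0921 by limma), Fn1 by 0.53, Tnc by 0.50, Vim by 0.05, Cd44 by -0.20 and Timp1 by -1.04. The same pair were the 2 risers among 18 contractile and SRF genes, which had a median of 0.26, or 0.09 without CEBPB replicate 4. Of 30 extracellular matrix genes none rose and 1 fell. That gene was Ccdc80, a secreted matrix protein, which fell by 0.97 (SE 0.14, adjusted p = 0.00145 by limma). It rests on slide 6: controls stood at 7.22 and 7.20 there and arrays with both factors at 6.24 and 6.0, while the 3 arrays of slide 5 (7.32, 7.37 and 7.41) lay above the 3 controls of slide 4 (7.10, 7.12 and 7.09).

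Several membrane, signalling and patterning genes also rose. Hs3st1, a heparan sulfate 3-O-sulfotransferase on chromosome 5 from 39613935 to 39645592, went from 5.30, 5.33, 5.72, 5.75 and 5.91 to 7.50, 7.44, 8.59, 7.56 and 7.24 (difference 1.98, SE 0.34, adjusted p = 0.00463 by limma). Pcsk6, a proprotein convertase that processes secreted precursors, on chromosome 7 from 65862136 to 66050386, went from 6.7, 6.84, 6.67, 7.16 and 7.48 to 8.16, 8.07, 8.12, 8.94 and 8.86 (difference 1.89, SE 0.18, adjusted p = 5.09e-05). Gbx2, a homeobox factor that patterns the midbrain and hindbrain border, on chromosome 1 from 89927962 to 89931176, went from 7.91, 7.96, 6.84, 7.68 and 7.22 to 9.46, 9.59, 9.18, 8.67 and 8.92 (difference 1.78, SE 0.34, adjusted p = 0.00968). In these 3 genes no array of one group reached the other. Hs3st1 lost its call without the 4 arrays lacking Xist (1.33, adjusted p = 0.109 by limma). In the 10 arrays alone Hs3st1 and Gbx2 lost theirs (adjusted p = 0.256 and 0.331). Slc4a2, a chloride and bicarbonate exchanger, rose by 1.61 (SE 0.22), and Slco3a1, an organic anion transporter, by 1.60 (SE 0.23), again without overlap. Sel1l3 (1.73), the zinc finger gene Zbtb7c (1.64), the ubiquitin ligase Pdzrn3 (1.53) and the histone H4 gene H4c17 (1.59) completed the 12 largest rises. Pdzrn3 lost its call in 13 of the 18 fits that left out 1 array. Sel1l3 and H4c17 overlapped between groups. Sel1l3 lost its call with no slide term (adjusted p = 0.111 by limma) and without the arrays lacking Xist (adjusted p = 0.0808). CEBPB replicate 4 stood at 9.69 for Slc4a2, within the range of the arrays with both factors, and at 8.96 for Sel1l3, below 4 of those 5. The other CEBPB arrays stood at 8.03 to 8.09 and 7.19 to 7.57.

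**Figure D2:**
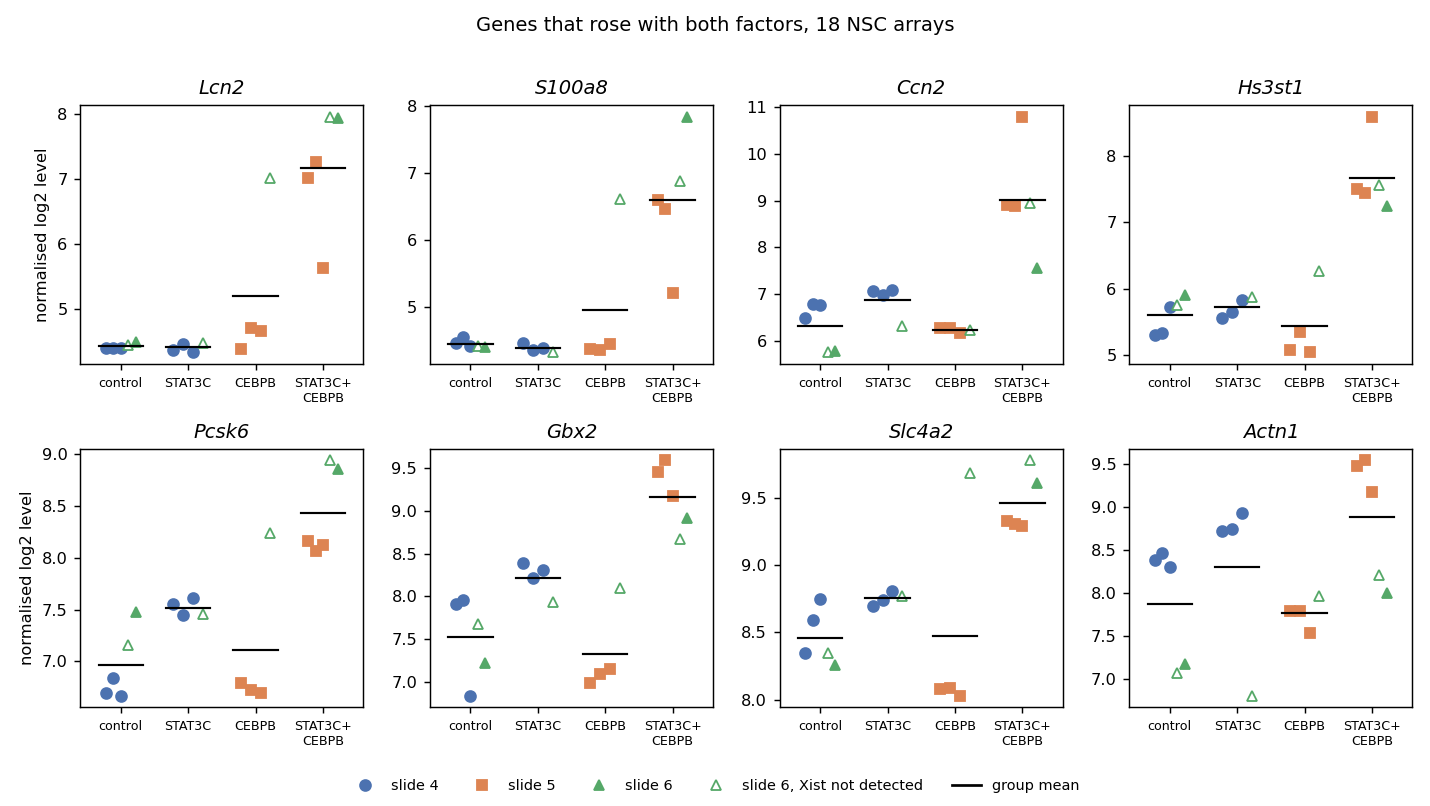
Normalised log2 level (vertical axis) of 8 genes that rose with both factors on each of the 18 NSC arrays, by vector group (horizontal axis). Circles, squares and triangles are slides 4, 5 and 6, open triangles are arrays without Xist, and bars are group means (n = 5, 4, 4 and 5). Lcn2 stands at 4.40 to 4.50 in the controls and at 5.64 to 7.96 with both factors, and the open triangle of the CEBPB group lies above the other CEBPB arrays in 7 of the 8 panels, Ccn2 being the exception.

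Among smaller rises from the lists, Crmp1, a collapsin response mediator of axon growth, rose by 1.18 (SE 0.20, adjusted p = 0.00426 by limma) as the only called gene of 21 neuronal differentiation genes, whose median was -0.02. The lowest array with both factors (5.91) lay 0.015 above the highest control (5.89), and the plain difference of means was 0.59. Crmp1 lost its call with no slide term (adjusted p = 0.187 by limma) and without the 4 arrays lacking Xist (0.71, adjusted p = 0.183). In the 10 arrays alone it was lost too (adjusted p = 0.183). Igf2, a growth factor of meninges and vessels in the embryonic brain, stood at 5.41, 5.26, 6.26, 6.86 and 6.57 in the controls and at 7.61, 7.60, 8.15, 7.60 and 7.87 with both. These groups did not overlap, and the change of 1.21 (SE 0.31, adjusted p = 0.049 by limma) lost its call in 14 of the 18 fits that left out 1 array. It was the called gene among 4 tested pericyte and meningeal fibroblast genes. Of the defining markers of those cells, Pdgfrb, Rgs5, Col1a1, Dcn and Lum were detected on 0 of the 10 arrays and Col3a1 on 1. The summed level of all 15 genes of the list on the array was 657.3 to 744.9 in the controls and 731.7 to 987.4 with both factors. That sum includes Igf2 itself, so it cannot be set against the Igf2 change. Whether such cells had a part in the Igf2 result was not tested. Cyth2, an exchange factor for ARF proteins, rose by 0.88 (SE 0.14), a change that rests on slide 6, since slides 5 and 4 differed by 0.07, the groups overlapped and the call was lost with no slide term (adjusted p = 0.379 by limma). With CEBPB alone it rose by 1.03, with replicate 4 at 6.16 and the other CEBPB arrays at 5.63 to 5.86.

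Among the lists, glycolysis and hypoxia held the most falls. Of 28 tested glycolysis and hypoxia genes 9 fell (32.1% of the list, against 1.33% of all genes) and none rose, 27 of 28 had a negative change, and the median was -0.64. The genes of this list answer to hypoxia-inducible factors or carry out glycolysis. The number called moved with the setting, from 0 in the 10 compared arrays alone and 2 with no slide term through 3 without CEBPB replicate 4 or without control replicate 4 to 13 with the absence of Xist as a further term, while the median stayed between -0.76 and -0.44 and 24 to 27 members stayed negative. On slide 6 alone 26 of 28 were negative with a median of -0.51, and with only 4 arrays none was called. The list was already known to fall from an earlier pass over these arrays, so its direction is no independent evidence.

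Ankrd37, an ankyrin repeat gene induced by hypoxia-inducible factor, fell by 2.07 (SE 0.40, adjusted p = 0.00968 by limma). It lies on chromosome 8 from 45996908 to 46000414. Its controls stood at 6.53, 6.13, 6.33, 8.72 and 6.92 and the arrays with both factors at 5.45, 5.56, 6.04, 6.41 and 5.30. The highest array with both factors, replicate 4, lay above 2 of the controls, while control replicate 4 of the same slide was the highest of all 10. Without control replicate 4 Ankrd37 lost its call (-1.65, adjusted p = 0.0589 by limma). It was also lost with no slide term (-1.18, adjusted p = 0.273) and in the 10 arrays alone (adjusted p = 0.349).

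Vegfa, the angiogenic growth factor, on chromosome 17 from 46016993 to 46032377, went from 9.88, 9.26, 9.88, 10.52 and 10.20 to 8.84, 8.94, 9.48, 8.96 and 9.07 (difference -1.59, SE 0.22, adjusted p = 0.00142 by limma). The pairs of slide 6 differed by -1.56 and -1.14 and slides 5 and 4 by -0.58. The highest array with both factors lay above the lowest control. Vegfa lost its call with no slide term, without the 4 arrays lacking Xist and in the 10 arrays alone. Pdk1, the kinase that shuts pyruvate out of the mitochondrial cycle, on chromosome 2 from 71873215 to 71903858, went from 8.04, 7.47, 8.61, 8.22 and 7.85 to 6.26, 6.23, 7.03, 7.31 and 6.95 (difference -1.40, SE 0.34, adjusted p = 0.0397). Pdk1 did not overlap between groups, but lost its call in 13 of the 18 fits that left out 1 array. Its call was also lost without the 4 arrays lacking Xist (-0.90, adjusted p = 0.296 by limma) and in the 10 arrays alone (adjusted p = 0.638). In the authors' deposited values Pdk1 did not pass (adjusted p = 0.0516). P4ha2, a collagen prolyl hydroxylase, on chromosome 11 from 54100924 to 54131668, went from 5.56, 5.13, 6.11, 5.63 and 6.5 to 4.98, 5.11, 4.99, 4.60 and 4.41, where 3 of 5 arrays detected it (difference -1.53, SE 0.26, adjusted p = 0.00447). A second P4ha2 probe changed by -0.64 and did not pass (adjusted p = 0.245 by limma).

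The other called members were Egln3, an oxygen-sensing prolyl hydroxylase (-1.10), Ndrg1, a stress response gene (-1.01), P4ha1, a further collagen prolyl hydroxylase (-0.89), and the glycolytic enzymes Pgk1 (-0.74) and Tpi1 (-0.67). Their adjusted p ran from 0.0184 to 0.0459 by limma. Glycolytic members that did not pass moved by similar amounts, among them Pfkl (-0.77), Aldoa (-0.62), Ldha (-0.61) and Gapdh (-0.56). The glucose transporter Slc2a3 changed by -1.53 (SE 0.41, adjusted p = 0.0566) and Slc2a1 by -0.44 (adjusted p = 0.387). Adm, a vasodilator peptide and a hypoxia target, was the member with a positive change, at 0.51 (adjusted p = 0.178).

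**Figure D3:**
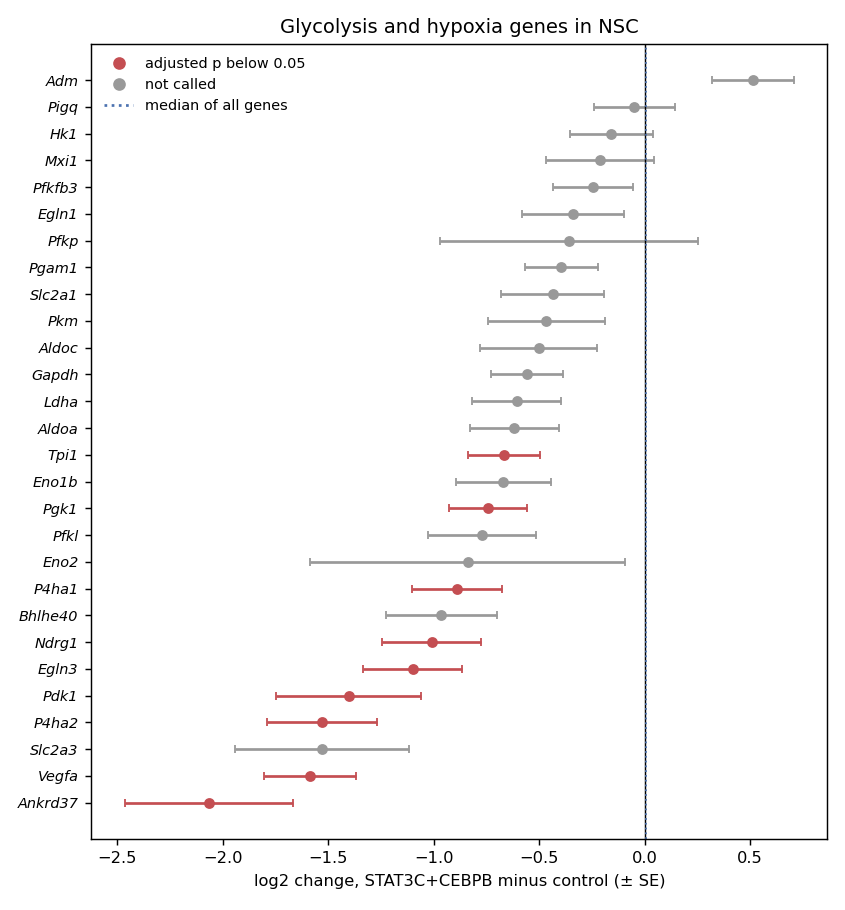
Log2 change with both factors against control (horizontal axis, points with SE bars) for the 28 tested glycolysis and hypoxia genes, ordered by change. Red points are the 9 genes at an adjusted p below 0.05, grey points were not called, and the dotted line is the median of all 10857 genes at 0.007. Only Adm lies to the right of 0, and Ankrd37 lies furthest left at -2.07.

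The promoters of 2 called members are shown because both genes fell and both hold the core of the hypoxia response element. They give 250 bases before the start site 5′ to 3′ from RefSeq on GRCm38.p6, at chr8:45999851-46000100 on the minus strand for Ankrd37 and chr11:54100674-54100923 on the plus strand for P4ha2. Capitals mark ACGTG or its reverse CACGT. The Ankrd37 window belongs to a start site 564 bases from the annotated end of the gene.
Ankrd37: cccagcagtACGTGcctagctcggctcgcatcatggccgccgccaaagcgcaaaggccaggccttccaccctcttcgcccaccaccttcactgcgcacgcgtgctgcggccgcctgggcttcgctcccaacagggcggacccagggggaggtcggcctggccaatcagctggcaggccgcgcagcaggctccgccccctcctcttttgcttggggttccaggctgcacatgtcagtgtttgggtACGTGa
P4ha2: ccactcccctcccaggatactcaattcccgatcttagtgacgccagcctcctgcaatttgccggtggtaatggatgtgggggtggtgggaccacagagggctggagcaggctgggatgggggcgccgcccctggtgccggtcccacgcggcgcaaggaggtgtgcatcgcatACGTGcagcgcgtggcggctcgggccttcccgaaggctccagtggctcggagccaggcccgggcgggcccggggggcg
In the full windows this motif stood in 12 of 24 tested list members with a promoter in the table (50%) and in 5 of the 8 called ones, against 25.6% of tested genes. It stood in 24.4% of promoters of genes called up and 29.9% of those called down. The P4ha2 window holds a further match from 10 to 14 bases after the start site, beyond the bases shown.

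Further large falls lay outside the lists. Chst3, a chondroitin 6-O-sulfotransferase of the extracellular matrix, on chromosome 10 from 60181527 to 60222114, went from 7.12, 7.03, 7.34, 7.87 and 7.84 to 5.72, 5.60, 5.58, 6.19 and 5.37 (difference -2.18, SE 0.19, adjusted p = 2.8e-05 by limma). Scrg1, first found in scrapie-infected brain, on chromosome 8 from 57455882 to 57479360, went from 7.02, 7.02, 7.36, 9.57 and 8.50 to 5.62, 5.57, 5.61, 6.69 and 6.25 (difference -3.00, SE 0.30, adjusted p = 5.09e-05). Mgarp, a mitochondrial protein on chromosome 3 from 51388412 to 51396547, went from 7.11, 6.37, 6.82, 8.49 and 7.78 to 5.87, 6.0, 5.33, 5.68 and 5.87 (difference -2.79, SE 0.36, adjusted p = 0.000851). In these 3 genes the groups did not overlap, and in Scrg1 and Mgarp the slide 6 controls were the highest arrays. Mmd2 fell by 3.18, the largest fitted fall, with a wide error (SE 0.77, adjusted p = 0.0368), and its call was lost in 13 of the 18 fits that left out 1 array. Txnip, the thioredoxin inhibitor that also limits glucose uptake, fell by 2.26 (SE 0.56, adjusted p = 0.0397) and lost its call in 15 of them. With no slide term Scrg1, Mgarp, Mmd2 and Txnip all lost their calls (adjusted p = 0.0607, 0.0607, 0.0883 and 0.0575 by limma). Txnip also lost its call without the 4 arrays lacking Xist (-1.185, adjusted p = 0.385), and Mmd2 in the authors' deposited values (adjusted p = 0.0984).

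The remaining large falls had mixed roles. Ppp1r3c, which directs protein phosphatase 1 to glycogen, fell by 1.83 (SE 0.38), Thrsp, a regulator of fat synthesis, by 2.17 (SE 0.45), Ntn5, a netrin family member, by 2.02 (SE 0.37) and Dclk1, a microtubule-binding kinase, by 1.85 (SE 0.31). Other Dclk1 probes changed by -0.7 and -0.81 and did not pass (adjusted p = 0.115 and 0.177 by limma). Fam71f2 fell by 1.86 (SE 0.29), and Fam71f2 and Thrsp were each detected on 1 of 5 arrays with both factors. The Thrsp groups overlapped, with replicate 5 of both factors at 5.88. With no slide term Thrsp, Ntn5, Ppp1r3c and Fam71f2 also lost their calls (adjusted p = 0.193, 0.0679, 0.163 and 0.125 by limma). Ddit4, a stress-induced inhibitor of mTORC1, fell by 0.98 (SE 0.22, adjusted p = 0.0249 by limma) and Sesn2, a sestrin induced by stress, rose by 0.66 (SE 0.16, adjusted p = 0.0419). They were the called genes of 34 in the ATF4 and ER stress list, whose median was 0.09, and neither passed without CEBPB replicate 4.

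**Figure D4:**
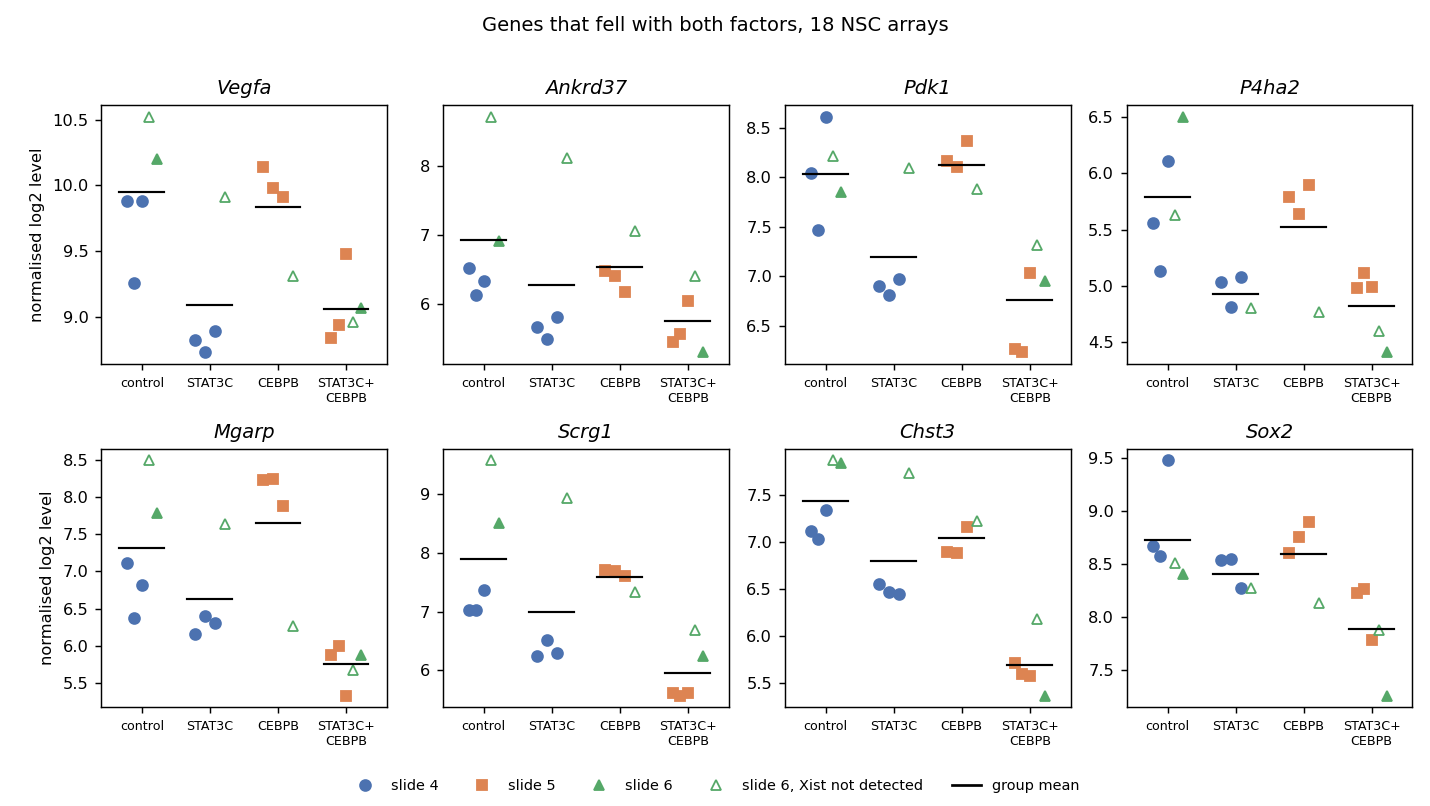
Normalised log2 level (vertical axis) of 8 genes that fell with both factors on each of the 18 NSC arrays, by vector group (horizontal axis), with symbols for slide and Xist and bars for the group means (n = 5, 4, 4 and 5). Chst3 stands at 7.03 to 7.87 in the controls and 5.37 to 6.19 with both factors. In the Scrg1 panel the slide 6 control without Xist is the highest array of the group at 9.57.

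Markers of stem cell and glial identity moved in single genes. Sox2, a transcription factor that holds neural cells in the stem state, stood at 8.67, 8.58, 9.48, 8.51 and 8.41 in the controls and at 8.23, 8.27, 7.79, 7.88 and 7.26 with both factors (difference -0.98, SE 0.23, adjusted p = 0.0335 by limma). Every control lay above every array with both factors, by 0.14 at the nearest. Fgfr3, a growth factor receptor of radial glia and astrocytes, fell by 1.49 (SE 0.35, adjusted p = 0.0322), with levels of 6.67 to 8.41 in the controls and 6.01 to 6.84 with both. Lix1 fell by 0.69 (SE 0.17, adjusted p = 0.0404) and by 1.16 with CEBPB alone, where it also passed. These were 3 falls among 20 tested neural stem and radial glia genes, against 1.33% of all genes, and the list's median was -0.01. The count ran from 0 to 3 with 1 array left out: of 18 such fits Sox2 lost its call in 8, Fgfr3 in 7 and Lix1 in 13. Sox2 and Fgfr3 also lost theirs with no slide term and in the authors' deposited values. A second probe of each did not pass (Sox2 -0.47, adjusted p = 0.416, and Fgfr3 -0.45, adjusted p = 0.486, by limma), while 2 of the 3 other Lix1 probes did. Without CEBPB replicate 4, of these 3 genes, Fgfr3 alone passed (-1.05). Nes (0.76, adjusted p = 0.209), Fabp7 (-0.30), Slc1a3 (-0.28) and Vim (0.05) did not pass.

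Aqp4, the water channel of astrocyte endfeet, fell by 1.77 (SE 0.41, adjusted p = 0.0287 by limma). It was detected on 5 of 5 controls, at 6.33, 6.21, 5.15, 6.47 and 6.02, and on 2 of 5 arrays with both factors, at 5.06, 4.81, 4.50, 4.58 and 5.25. With Fgfr3 it made 2 falls among 19 astrocyte genes, with no rise and a median of -0.12, against 1.33% of all genes. That count ran from 0 to 4 with 1 array left out. Aqp4 lost its call without control replicate 4 (adjusted p = 0.102 by limma) and without STAT3C replicate 4 (adjusted p = 0.0548). It was also lost without the arrays lacking Xist (-0.77, adjusted p = 0.365 by limma) and with no slide term (adjusted p = 0.0687). The same held in the authors' deposited values (adjusted p = 0.0633) and with no detection filter (adjusted p = 0.0501). In the control and both-factor arrays alone Aqp4 did not pass either (adjusted p = 0.413). Other astrocyte markers did not pass: Aldh1l1 changed by -0.38, Gja1 by 0.21 and S100b by -0.04. The summed level of the 19 astrocyte genes was 27390 to 35880 in the controls and 26840 to 36440 with both factors. In RNA from a culture, fewer cells of a type and less RNA per cell cannot be told apart. Mbp, the myelin basic protein, fell by 1.07 (SE 0.15, adjusted p = 0.00145), a change that rests on slide 6, where controls stood at 6.19 and 5.88 and arrays with both factors at 4.9 and 5.12. The 3 controls of slide 4 (4.59 to 4.71) did not detect it, and of the 3 arrays with both factors on slide 5 (4.78 to 4.91) 1 did. A second Mbp probe changed by -0.14 and did not pass (adjusted p = 0.712 by limma). Mbp was the called gene of 12 of the oligodendrocyte lineage, whose median was -0.17. The summed level of the 19 genes of that list on the array was 13340 to 19220 in the controls and 18570 to 22160 with both factors. Olig1 (0.4, adjusted p = 0.206 by limma) and Olig2 (-0.06, adjusted p = 0.939) did not pass.

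Of the other lists, only the proneural glioma genes held a called gene. Cholesterol synthesis genes had a median of -0.51 with 15 of 18 negative, led by Insig1 (-1.11, adjusted p = 0.104 by limma), a sensor of sterol level. Interferon-stimulated genes had a median of -0.24 with 16 of 21 negative, MHC class I genes -0.20, cell cycle genes -0.11 over 37, and chemokines and cytokines 0.06 over 16. Sox2 was the called gene of 22 proneural glioma genes, whose median was 0.02. Of the microglial markers Aif1 and Csf1r were detected on 4 of 5 arrays of each group, while Cx3cr1, Tyrobp, C1qa and Ptprc were detected on 0 of 10. Summed levels of the 17 microglia and macrophage genes were 418.2 to 503.5 in the controls and 421.6 to 510.5 with both factors. The 15 endothelial genes summed to 426.5 to 806.7 and 389.4 to 675, and the 6 erythroid genes to 148.7 to 176.8 and 149.8 to 175.

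The same vectors had been put into C17.2, a mouse line of immortalised neural progenitors, with 4 arrays each of control and both factors, and the difference of the change between cell types was tested on all 34 arrays. It passed for 149 of 11496 genes (1.3%) by limma with Benjamini-Hochberg adjustment, 73 with the higher signed change in NSC and 76 with the lower. In C17.2 the arrays with both factors lay on a slide that also held 2 CEBPB arrays. The controls lay on another slide that held no other group, so slide and vector cannot be told apart there. With the 16 C17.2 arrays fitted alone, 56 of 9698 genes passed (0.577%). Of these 4 were also among the 308 NSC genes, which is 7.14% of the C17.2 genes and 1.3% of the NSC genes. Ccn2 (3.79 in C17.2), Fabp5 (-1.24 in NSC, -1.20 in C17.2) and Pmp22 (-0.73 and -2.46) had the same sign, and Serp2 the opposite (0.98 and -1.24). Fabp5 binds fatty acids and Pmp22 is a myelin protein.

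Named NSC genes fell into both classes. Ccn2 changed by 3.59 (SE 0.46) in the C17.2 arrays of the joint fit, and its difference from NSC did not pass (adjusted p = 0.659). Chst3 changed by -2.16 (SE 0.49) there, again with no called difference (adjusted p = 0.984), although in C17.2 alone its adjusted p was 0.131. Lcn2 changed by 1.80 (SE 0.51) in C17.2 with no called difference (adjusted p = 0.286). S100a8 did differ: it changed by 0.07 (SE 0.23) in C17.2, a difference of 2.94 (SE 0.36, adjusted p = 4.79e-05). Vegfa had opposite signs, at 0.99 (SE 0.25) in C17.2, and the difference was -2.67 (SE 0.39, adjusted p = 0.00052). The NSC change was also lower by that test for Scrg1 (-2.81), P4ha2 (-1.92), Txnip (-3.07) and Dclk1 (-2.26), and higher for Gbx2 (1.68), Sel1l3 (1.88) and Slc4a2 (1.56). Of the named genes called in NSC, 13 (Lcn2, S100a8, Gbx2, Sel1l3, Igf2, Lix1, Fgfr3, Aqp4, Fam71f2, Ntn5, Thrsp, Scrg1 and Mmd2) did not pass the detection filter on the C17.2 arrays, so their C17.2 levels lie near background and their differences compare an NSC change with a change that could not be measured well. For Hs3st1, which changed by 0.01 in C17.2, and Mgarp, which changed by 0.46, the difference did not pass (adjusted p = 0.109 and 0.0584).

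**Figure D5:**
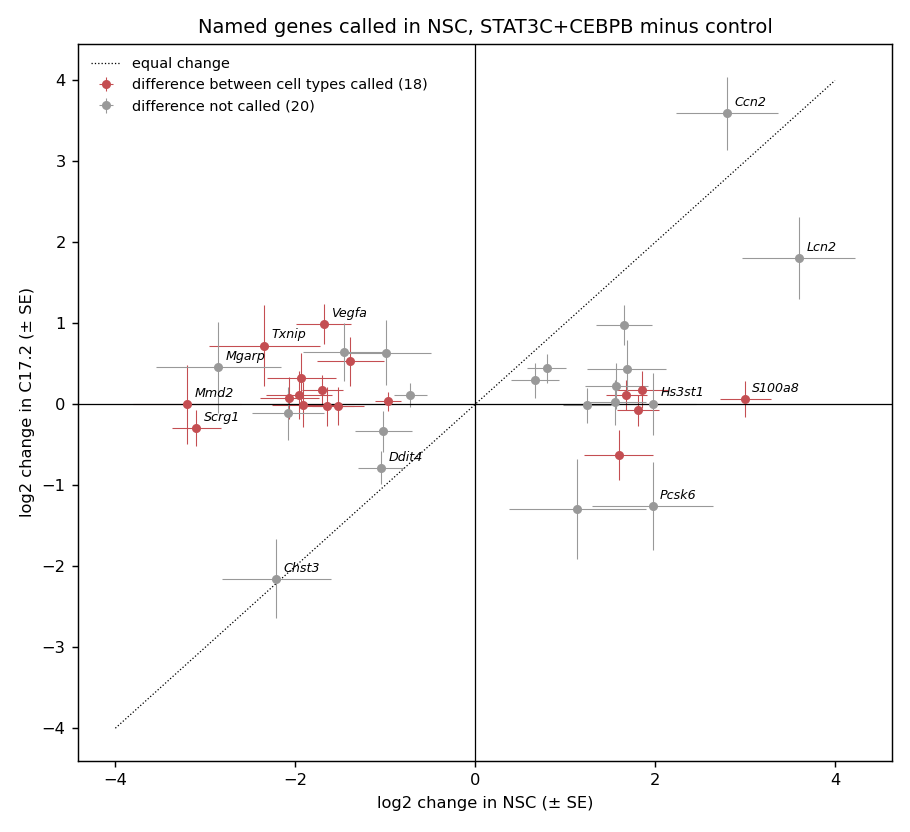
Log2 change with both factors against control in NSC (horizontal axis) and in C17.2 (vertical axis) for the 38 named genes called in NSC, from the joint fit of 34 arrays, with SE bars. Red points are the 18 genes whose change differed between the cell types at an adjusted p below 0.05, grey points the 20 others, and the dotted line marks equal change. Ccn2 and Chst3 lie near that line, and S100a8 and Scrg1 near 0 on the C17.2 axis.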

How the data were processed

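The authors deposited a file per array with the mean bead signal of each probe (an intensity on a linear scale, per the file headers), a detection p-value and a bead count; the bead spread, an other quantity per the file headers, was not used. Intensities below 0 occur, so background had been subtracted. The submitters' processing notes name BeadStudio and lumi, without versions. A further deposited table, normalised by the authors and read here as log2 (base and centring unstated), served as an alternative.

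Probes were named by the platform annotation and RefSeq (GRCm38.p6): 34885 had 1 symbol, 18 several and 10378 none. The 18 NSC arrays were normalised with neqc (limma 3.58.1, R 4.3.3, offset 16), the brightest probe on average stood for each gene, and group plus slide was fitted with lmFit and eBayes (12 residual degrees of freedom, two-sided, Benjamini-Hochberg over 10857 genes, called below 0.05). The fit was tested on simulated data. A joint fit of 34 arrays had slide terms for the NSC slides only. For bounds, undetected arrays took their lowest detected level or the gene's own, if higher. No 2 arrays held identical values.

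Named genes were 7 module regulators, the 12 largest rises and 12 largest falls with the same sign in plain means and slide 6, up to 4 called members per list and direction, and Lix1, Ccdc80 and Cyth2, 45 in all. The members and the 23 gene lists were chosen with earlier results of these data known. Of 45 named genes 35 had a promoter in the RefSeq table. Figures were drawn with matplotlib.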

Additional observations from a re-analysis of the deposited data

Results flagged for a closer look

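Among the 45 named genes, 90 groups of 5 arrays were searched for an array far from the rest by Dixon's ratio (above 0.71 for 5 arrays), and 7 such arrays were found, where chance gives about 1 in 20 groups. Control replicate 3 stood at 9.18 for Bhlhe40, below the others at 10.21 to 10.49, and at 9.48 for Sox2, above the others at 8.41 to 8.67. Control replicate 5 stood at 9.35 for Dclk1 (others 8.64 to 8.77) and at 7.30 for Ntn5 (others 6.02 to 6.25). Among the arrays with both factors, replicate 3 stood at 8.59 for Hs3st1 (others 7.24 to 7.56), replicate 4 at 7.15 for Dclk1 (others 7.63 to 7.82) and replicate 5 at 5.88 for Thrsp (others 4.44 to 4.84). Sox2 kept its call without control replicate 3 and lost it in 8 of the 18 fits that left out 1 array.

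The change with both factors differed between NSC and C17.2, by the interaction test in limma, in 18 named genes. The NSC change minus the C17.2 change was 2.94 for S100a8, 2.22 for Pdzrn3, 1.88 for Sel1l3, 1.68 for Gbx2 and 1.56 for Slc4a2. It was -3.20 for Mmd2, -3.07 for Txnip, -2.81 for Scrg1, -2.67 for Vegfa, -2.26 for Dclk1, -2.14 for Thrsp, -2.07 for Ppp1r3c, -1.92 for P4ha2, -1.91 for Ntn5, -1.88 for Fam71f2, -1.62 for Aqp4, -1.5 for Fgfr3 and -1 for Mbp. S100a8, Sel1l3, Gbx2, Mmd2, Scrg1, Thrsp, Ntn5, Fam71f2, Aqp4 and Fgfr3 did not pass the detection filter on C17.2 arrays, so for these the size of the difference is uncertain. With no slide term 14 of the 18 no longer passed and none turned sign. C17.2 arrays spread more, with a median residual SD of 0.289 against 0.214 in NSC, and with arrays weighted by cell type, an alternative chosen after seeing the data, Mmd2, Aqp4 and Fgfr3 no longer passed.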

How the results depend on the processing

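All 308 called genes kept their sign under each of 32 other settings in which they were measured, and all 38 named called genes did too, but calls were lost. Of the 38, 29 lost theirs with the 10 compared arrays alone, 38 on slide 6 alone, 21 with no slide term, 14 without the 4 arrays lacking Xist and 7 in the authors' deposited values. The first and second of these fits gave the same changes, since with slide in the fit the 10 arrays take the difference from slide 6. The number of calls over all genes was 199 with no slide term (63 down), 11 with the 10 control and both-factor arrays alone (5 up, 6 down), 0 with the 4 such arrays of slide 6 alone (330 at an unadjusted p below 0.05), and 898 with the absence of Xist as a further term (472 up, 426 down). Array weights gave 224 falls. Rises made up 68.3% of calls with no slide term, against 53.2% with slide in the fit. Leaving out 1 of the 18 arrays gave 170 to 567 calls, 97 to 315 up and 73 to 266 down, the lowest without CEBPB replicate 4 and the highest without replicate 4 of both factors. The other settings gave 289 to 456 calls. In all, 56 genes were called with slide fixed, with no slide term, with slide as a random block, with and without the arrays lacking Xist or a term for them, and in the authors' deposited values. The difference of the STAT3C+CEBPB change between NSC and C17.2 passed for 149 genes, and for 156 with no slide term, 188 in the deposited values and 209 with arrays weighted by cell type.

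Among genes that did not pass, Stat3 reached -0.004 with median scaling and -0.27 with array weights, and -0.10 to 0.28 with 1 array left out (-0.10 without control replicate 5, -0.07 without replicate 5 of both factors). Runx1 turned to -0.12 with the 10 arrays alone and on slide 6 alone, and to -0.11 without CEBPB replicate 4. Fosl2 turned to 0.15 with no slide term and 0.066 without the arrays lacking Xist, and Zbtb18 to 0.22 there. With 1 array left out Runx1 ran from -0.11 to 0.572 and Zbtb18 from -0.463 to 0.007. Counts over gene lists moved by over 1.5 times in 50 of 130 comparisons other than leaving out 1 array. Leaving out STAT3C or CEBPB arrays was added after seeing the data. The causes were not tested. No paired analysis was possible because the labels number no replicates. Arrays could be grouped only by a property of the data. The fit with the absence of Xist as a term did so for replicate 4 of each group, and gave 898 calls. The main fit, with 308, gave slide 6 a common term and did not separate these arrays. Precision is limited by 5 arrays a group on 3 slides, and signals near background give bounds only.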

Other observations

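Histone genes were noticed after their values were seen and are given as a description. Of 53 tested histone genes 10 rose with both factors and none fell, where 1.51% of all genes rose and 1.33% fell. Replication-dependent histone H4, which packs DNA with the other core histones, was most affected: 6 of 9 tested H4 genes rose, all 9 had a positive change and their median was 1.31 on the log2 scale. H4c17 (1.59), H4c6 (1.49), H4c1 (1.38), H4c18 (1.32), H4c9 (1.31) and H4c11 (1.07) passed, by limma with an adjusted p of 0.00224 to 0.0194. H2ac19 (1.23), the linker histone H1f2 (1.02), H2bc21 (0.89) and H3c6 (0.78) were the other risers. The 12 clustered H2B genes had a median of 0.63 with 1 riser, and the 15 H2A genes a median of 0.06. Copies of one histone are nearly identical in sequence, so the probes may not tell them apart. The 6 H4 rises were also counted without CEBPB replicate 4 (median 1.24) and without control replicate 3 (median 1.28), and 7 without the arrays lacking Xist (median 1.65). In the authors' deposited values 6 passed, with a median of 0.42. The cell cycle list had 0 of 37 genes called and a median of -0.11, and its part in the histone result was not tested.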
